A study of Mus musculus with 12 samples.

Results

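The comparison described here is between bone marrow-derived macrophages (BMMs), the precursors of osteoclasts, of Mir182ΔM/ΔM mice and of WT mice, both kept without RANKL. Its members are the 11044 genes that reached at least 1 CPM (reads of a gene relative to all reads on genes, scaled to a common library size) in at least 2 of the 4 libraries, out of 24394 genes analysed. The gene just inside that limit was Arhgef37, whose second highest value was 1.002 CPM, and the gene just outside was Snhg10 with 0.999 CPM. WT mice were Mir182+/+LysMcre(+) and Mir182ΔM/ΔM mice (called KO below) were Mir182flox/floxLysMcre(+), both on the C57BL/6 strain. Both genotypes therefore carried the Cre recombinase driven from the lysozyme M (Lyz2) locus, which is active in myeloid cells, and only the KO carried the floxed Mir182 alleles. BMMs were grown from bone marrow over 3 days in M-CSF, with 2 libraries per genotype. The other 8 of the 12 libraries are used only for comparison. They are WT and KO cells given RANKL for 5 days, and untreated BMMs of Control, LysMcre(+), and of Mir182mTg, LSL-Mir182LysMcre(+), mice that overexpress miR-182 in myeloid cells.

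miR-182-5p is a small RNA that guides the silencing machinery to mRNAs whose 3′ UTR pairs with its seed, the bases 2 to 8 from its 5′ end. BMMs divide in M-CSF, sense microbial products and tissue damage through Toll-like, C-type lectin and NOD-like receptors, and become osteoclasts when RANKL activates NF-kB and NFATc1. Type I interferon, made by the same cells, induces a broad antiviral program and opposes osteoclast formation. The antiviral genes are named here briefly, and the text turns on the other pathways that differed in the unstimulated cells.

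The mature sequences below, from RefSeq on GRCm38.p6, are shown because they define what the floxed allele encodes and how its relatives in sequence compare. The seed is in capitals. miR-182-5p lies at chr6:30165962-30165986 on the minus strand, inside the Mir182 hairpin at chr6:30165918-30165992. miR-96-5p and miR-183-5p are its neighbours on the same strand.
miR-182-5p: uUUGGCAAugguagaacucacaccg
miR-96-5p: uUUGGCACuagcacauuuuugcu
miR-183-5p: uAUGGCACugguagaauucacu
miR-1271-5p: cUUGGCACcugguaagcacuca
miR-96-5p (chr6:30169506-30169528) and miR-1271-5p (chr13:54578152-54578173) share 1 seed, and miR-182-5p and miR-183-5p (chr6:30169711-30169732) each have their own.

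Libraries of long RNA do not measure mature miRNA, and the Mir182 row was listed at 0 reads in both WT libraries and at 1 and 0 reads in the KO libraries, so it checks neither label. It reached 2.39 and 4.40 CPM in the Mir182mTg libraries, and Mir183 and Mir96 were at 0 reads in all 12. Depth was 24951280 to 33050619 reads on genes over all libraries, at which 3 reads equal 0.0908 to 0.120 CPM. The defining macrophage markers Csf1r, Adgre1, Cd68 and Itgam lay between 1254 and 2832 CPM in the 4 libraries. The summed level of the T and NK cell list was 3.06 to 5.69 CPM, that of the B cell list 6.73 to 7.43 CPM and that of the mast cell list 1.38 to 1.98 CPM. Other lists summed to more. The erythroid and megakaryocyte list had 187 to 244 CPM and the endothelial list 78.5 to 112 CPM, most of it from Vwf at 72.2 to 102 CPM. The dendritic cell list had 20.2 to 21.7 CPM and the stromal list 13.2 to 33.1 CPM. Lyz2, itself a macrophage marker and the locus that carries the Cre, stood apart between libraries of the same labelled genotype. It was at 44.0 and 39.8 CPM in WT, 34.6 and 31.2 in KO and 24.0 and 22.5 in KO after RANKL, but at 4117 and 4288 CPM in WT after RANKL and at 5783 to 7062 CPM in the Control and Mir182mTg libraries. Comparisons that use the WT libraries after RANKL are given below with this difference in view, and its part in any of them was not tested.

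Without RANKL, 969 genes were higher and 547 lower in KO than in WT BMMs, which is 8.77% and 4.95% of the genes tested. A gene was called at an adjusted p under 0.05 and a change of at least 1.2-fold, from limma with the replicate number as a block and Benjamini-Hochberg adjustment. The differences were small: 57 genes were more than 2-fold higher and 20 more than 2-fold lower, and the median over all genes was 0.01 on the log2 scale. Of the 1516 genes called, 1515 moved the same way in both same-numbered pairs of libraries. Without the block the counts fell to 322 and 128. Of the genes called higher, 917 were in neither interferon list. The list of interferon-stimulated genes holds 55 and is not complete. The 917 therefore still include members of interferon-inducible families, such as Ifi204 and Slfn4.

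The antiviral genes had the largest share of calls among the lists. Of 55 interferon-stimulated genes 52 were higher, with a median log2 difference of 0.80, and 2 were lower. Xaf1, a pro-apoptotic interferon target, was at 20.4 and 22.1 CPM in WT and at 127 and 118 CPM in KO (log2 difference 2.48 ± 0.05 SE, limma adjusted p = 1.12e-18). Eif2ak2, which encodes the double-stranded RNA sensor PKR, was at 121 and 103 CPM in WT and 171 and 156 CPM in KO (log2 difference 0.55 ± 0.04, limma adjusted p = 5.98e-10). Of 17 type I interferons and receptors 12 were tested, and none of these was called higher. The others were below the 1 CPM limit and could not be called. Ifngr1, a chain of the interferon-γ receptor, fell by 0.34 on the log2 scale, and Socs3, a feedback inhibitor of cytokine receptors, fell by 0.64. Of 16 genes of MHC class I presentation 6 were higher and none lower, or none in either direction without the block.

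**Figure D1:**
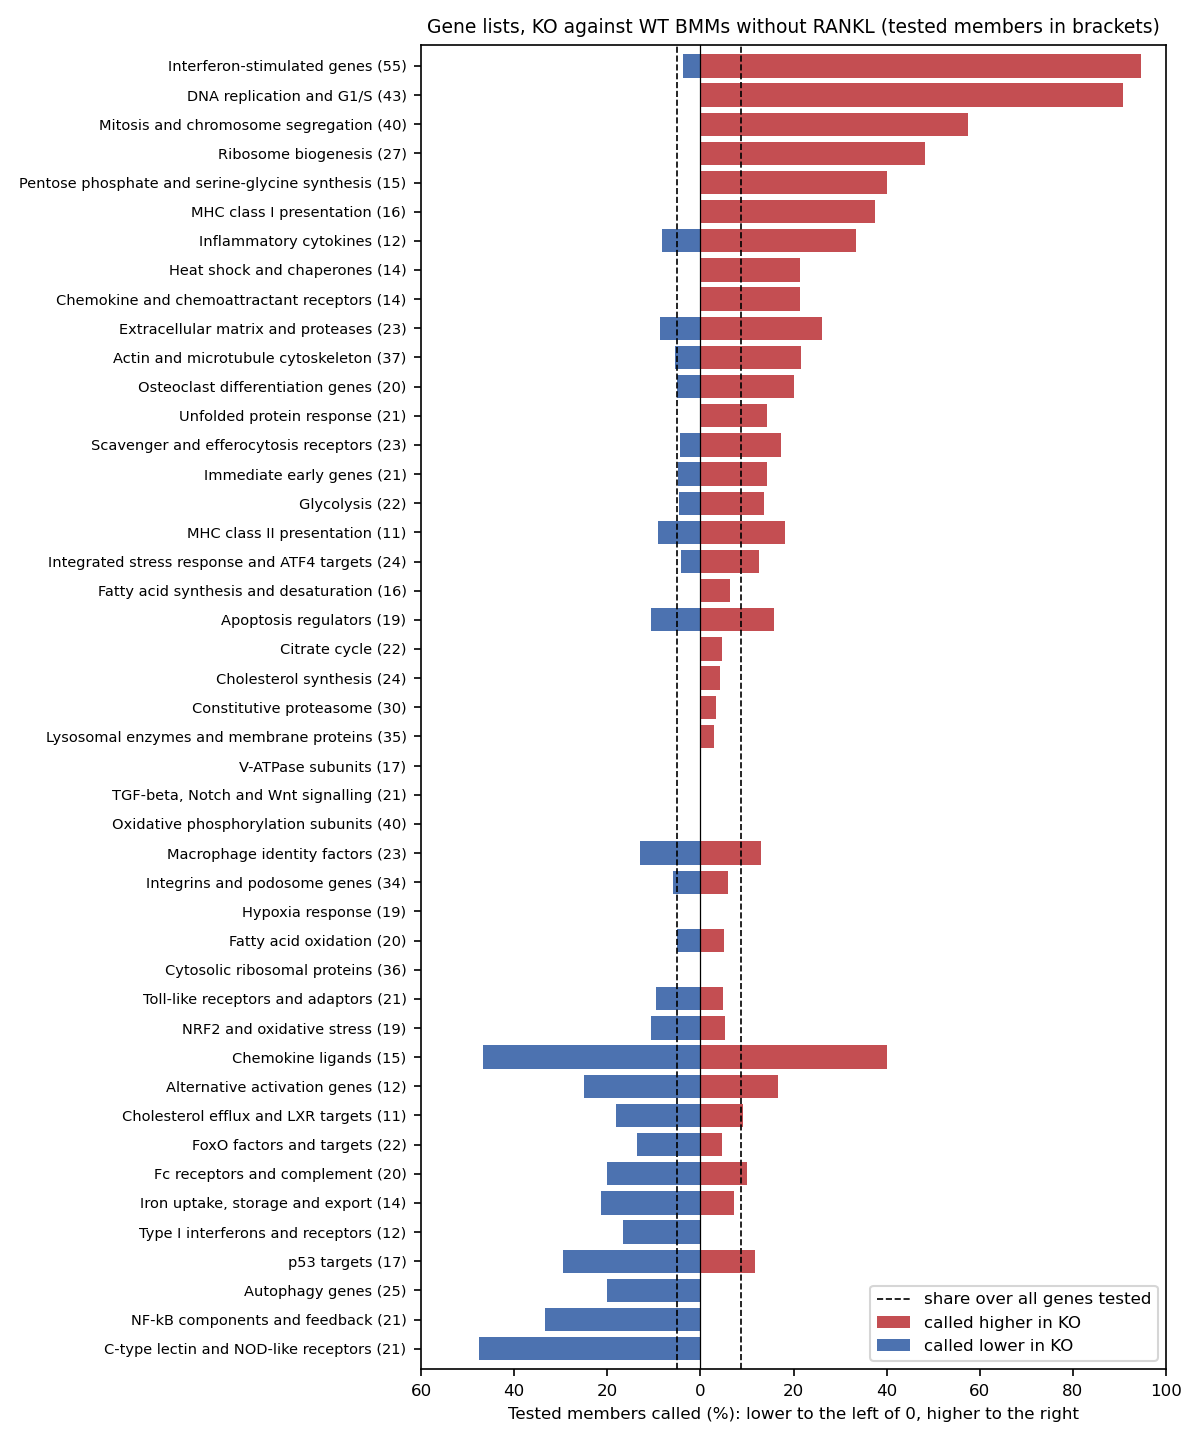
Share of the tested members of each gene list that was called higher (red, right) or lower (blue, left) in KO than in WT BMMs without RANKL, in percent, for lists with at least 10 tested members. Dashed lines mark the shares over all 11044 genes, 8.77% higher and 4.95% lower. Lists of DNA replication and mitosis lie far to the right beside the interferon-stimulated genes, and the C-type lectin and NF-kB lists lie to the left.

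The second group that rose was the machinery of DNA replication. Of 43 replication and G1/S genes 39 were called higher and none lower, with a median of 0.42 against 0.01 over all genes. All 6 subunits of the MCM2-7 helicase, which unwinds DNA at the fork, were among them. Mcm6 was at 166 and 166 CPM in WT and at 237 and 249 CPM in KO. Orc1, which marks replication origins, rose most, from 5.26 and 4.33 CPM in WT to 9.25 and 10.2 CPM in KO (log2 difference 0.89 ± 0.10, limma adjusted p = 4.59e-07). Uhrf1, which keeps DNA methylation through replication, was at 65.9 and 71.9 CPM in WT and 107 and 116 CPM in KO. Rrm2, the subunit of ribonucleotide reductase that limits deoxynucleotide supply, was at 50.8 and 59.4 CPM in WT and 83.4 and 94.0 CPM in KO. The groups did not overlap for any of these genes, which held for 1424 of the 1516 genes called. Ccne1 and Ccne2, the cyclins of S phase entry, rose by 0.54 and 0.65 on the log2 scale, and the sliding clamp Pcna by 0.52. The 4 genes of the list that were not called were E2f1, Rfc1, Rfc2 and Gins4, with log2 differences of 0.20, 0.24, 0.21 and 0.03. Without the block 24 of the 43 were called. The summed level of the list was 2194 and 2245 CPM in WT and 2977 and 3077 CPM in KO. It was 4544 and 4699 CPM in the untreated Control libraries, and what sets those apart was not tested.

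Genes of mitosis moved the same way by less. Of 40 such genes 23 were called higher and none lower, with a median of 0.29, and 39 of the 40 had a positive difference. Bub1, a kinase of the spindle checkpoint, was at 59.1 and 51.4 CPM in WT and 80.9 and 78.7 CPM in KO (log2 difference 0.53 ± 0.04, limma adjusted p = 3.65e-09). Mybl2, a transcription factor of late cell cycle genes, rose by 0.49 on the log2 scale and Cenpe, a kinetochore motor, by 0.45. Foxm1, which drives the G2/M program, rose by 0.43. The proliferation marker Mki67 rose by 0.30 on the log2 scale, from 886 and 658 CPM to 1073 and 822 CPM. Its KO replicate 2 lay below WT replicate 1, and each KO library was above the WT library of its own number. Ccnb2 and Cdc20, 2 of the 17 members that were not called, had differences of 0.08 and 0.15. Without the block 6 of the 40 were called. Of the Reactome pathway sets, 625 had at least 15 tested members, and the 10 sets with the largest shares called higher were all sets of DNA replication, telomere or DNA repair synthesis. The first was activation of the pre-replicative complex, with 23 of 29 genes higher. Shares called lower were smaller. The largest was 4 of 17 for chemokines and their receptors, where 6 were higher. Glutathione conjugation had 4 of 18 and arachidonic acid metabolism 5 of 23 genes lower, with none higher in either.

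Part of the genes of ribosome assembly and of nucleotide precursor synthesis rose too. Of 27 ribosome biogenesis genes 13 were called higher and none lower (median 0.26). Myc, the transcription factor that drives these genes, was at 26.3 and 19.2 CPM in WT and at 40.03 and 29.9 CPM in KO (log2 difference 0.60 ± 0.04, limma adjusted p = 2.87e-10). Dkc1, which modifies ribosomal RNA, rose by 0.51 and Polr1a, the large subunit of RNA polymerase I, by 0.43. In contrast, none of 36 cytosolic ribosomal protein genes was called, and their median was -0.14. Without the block 4 of the 27 biogenesis genes were called. Rn45s, the precursor of ribosomal RNA, had 1176 CPM for WT replicate 1, 742 CPM for KO replicate 1, and 21273 and 13986 CPM for WT and KO replicate 2. The part of that difference between preparations in the ribosomal results was not tested.

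Of 15 genes of the pentose phosphate pathway and serine-glycine synthesis, 6 were called higher, and all 6 belong to serine synthesis and the folate cycle. Mthfd2, a mitochondrial enzyme that makes formate for purines, was at 18.3 and 20.1 CPM in WT and 29.4 and 33.2 CPM in KO (log2 difference 0.68 ± 0.05, limma adjusted p = 1.27e-09). Shmt1, Mthfd1l, Psat1, Shmt2 and Mthfd1 rose by 0.57, 0.47, 0.37, 0.34 and 0.29. The pentose phosphate enzymes G6pdx, Pgd, Taldo1 and Pgls had differences between -0.14 and -0.20, none past the 1.2-fold limit. Without the block 3 of the 15 genes were called. Asns, asparagine synthetase, was at 11.9 and 12.2 CPM in WT and 23.2 and 22.9 CPM in KO. Slc7a5, which imports large neutral amino acids, was at 11.1 and 10.8 CPM in WT and 19.4 and 18.9 CPM in KO. Both are targets of ATF4, the transcription factor of the integrated stress response, but only 3 of the 24 genes of that list were higher and 1, Ppp1r15a, was lower, which is close to the share over all genes. Tfrc, the receptor that takes up iron, rose by 0.38, whereas Slc40a1, the iron exporter, fell by 0.42. Among chaperones Hsp90aa1 rose by 0.42 and Hspd1 by 0.39, and 3 of 14 genes of that list were higher. Tubb5, Tubb6 and Tuba1b, which encode tubulins, were among 8 of 37 cytoskeletal genes that rose, by 0.42, 0.43 and 0.33, and lamin B1 (Lmnb1) rose by 0.35. Of these 37 genes 8 (21.6%) were higher and 2 (5.41%) lower, against 8.77% and 4.95% over all genes. Without the block 4 of the 37 were higher and 1 lower.

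**Figure D2:**
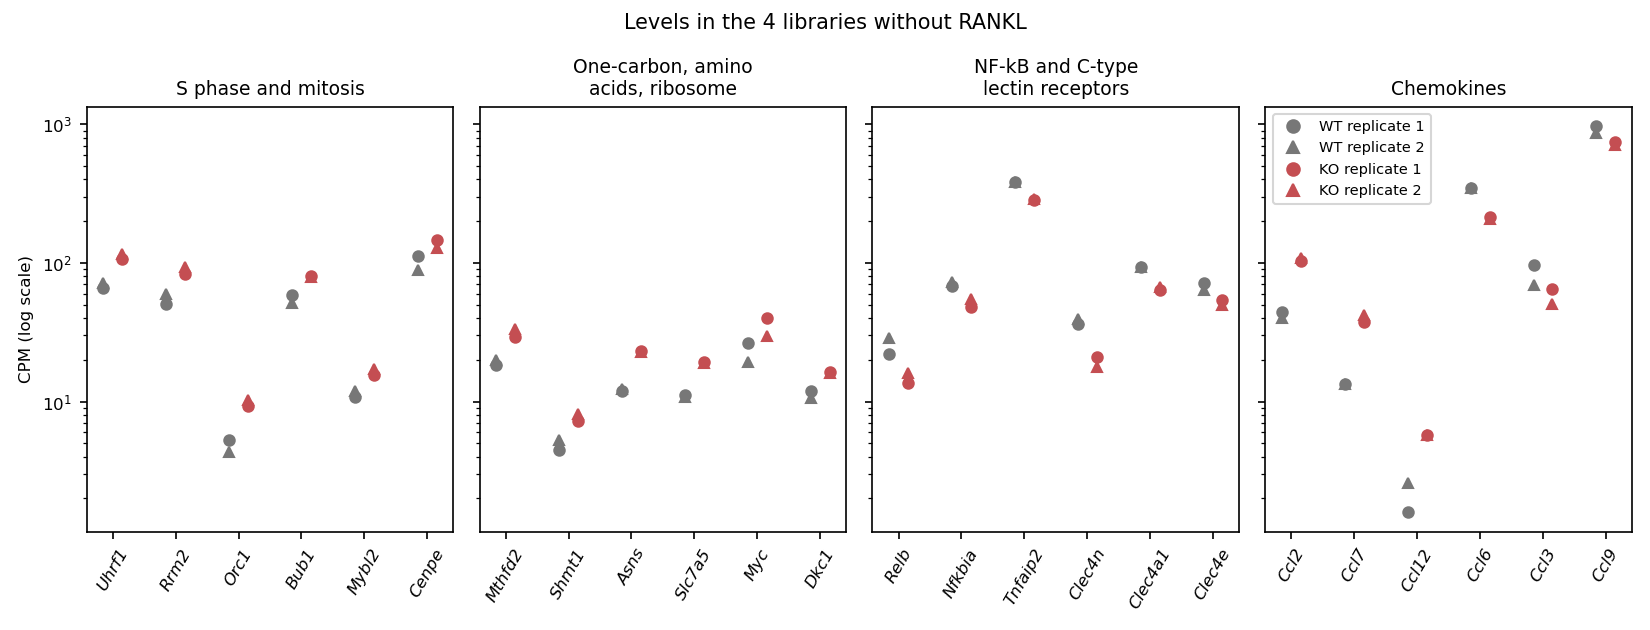
CPM of 24 genes in the 4 libraries without RANKL, on a log axis. Circles are replicate 1 and triangles replicate 2, grey is WT and red is KO. KO libraries lie above WT for the genes of S phase, one-carbon metabolism and ribosome assembly and for Ccl2, Ccl7 and Ccl12, and below WT for the NF-kB, C-type lectin and remaining chemokine genes.

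Among the genes that fell in the KO were receptors with which macrophages sense microbes. Of 21 C-type lectin and NOD-like receptor genes 10 were called lower and none higher, with a median of -0.23 against 0.01 over all genes. Clec4n (Dectin-2), a receptor for fungal mannans, was at 36.2 and 39.4 CPM in WT and at 21.02 and 17.7 CPM in KO (log2 difference -0.94 ± 0.08, limma adjusted p = 4.46e-09). Clec4a1, another receptor of that list, was at 93.9 and 93.3 CPM in WT and 63.6 and 67.4 CPM in KO. Clec4e (Mincle) fell by 0.38 on the log2 scale and Clec4d, its partner, by 0.31. Clec7a (Dectin-1), the receptor for β-glucan, fell by 0.28. Of the NOD-like receptor genes, Nlrp1b fell by 0.36 and Nlrc4, which senses flagellin, by 0.30, whereas Nlrp3 and Nod2 had differences of -0.08 and -0.02 and were not called, nor was Nod1. Without the block 2 of the 21 were called. The summed level of the 23 measured members was 5722 and 5484 CPM in WT and 5126 and 4974 CPM in KO. It was 1906 and 1952 CPM in the untreated Control libraries, and what sets those apart was not tested. The Clec4 genes lie side by side on chromosome 6 and are similar in sequence, so reads could be shared between them.

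Other lists of innate receptors held calls in both directions. Of 21 Toll-like receptor and adaptor genes 2 (9.52%) were lower and 1 (4.76%) higher. Of 20 Fc receptor and complement genes 4 (20%) were lower and 2 (10%) higher. Of 23 scavenger and efferocytosis receptors 1 (4.35%) was lower and 4 (17.4%) higher. Over all genes 4.95% were lower and 8.77% higher. Without the block the Fc and complement list had 2 lower and 1 higher. Tlr2, the receptor for bacterial lipopeptides, was at 136 and 150 CPM in WT and 90.2 and 97.4 CPM in KO (log2 difference -0.60 ± 0.04, limma adjusted p = 3.27e-11), and its partner Tlr1 fell by 0.28. Tlr3, which binds double-stranded RNA and is itself induced by interferon, rose by 0.53. Marco, a scavenger receptor for bacteria, was at 12.02 and 9.34 CPM in WT and 5.22 and 4.55 CPM in KO, whereas Axl, which binds apoptotic cells, Havcr2, Cd36 and Lrp1 rose by 0.66, 0.36, 0.32 and 0.29. Fcgr2b, the inhibitory Fc receptor, fell from 279 and 221 CPM to 162 and 141 CPM, while Fcgr1, the high-affinity activating receptor, rose from 116 and 123 CPM to 174 and 188 CPM. C3, the central complement protein, fell by 0.36. Of 9 monocyte markers 3 (33.3%) were higher and 1 (11.1%) lower, with a median of 0.15, or none and 1 without the block. Ly6c2, Vcan and Fn1 rose by 0.38, 0.28 and 0.65, and F13a1 fell by 0.61, from 378 and 359 CPM to 249.9 and 232 CPM. The summed level of the 9 was 468 and 450 CPM in WT and 345 and 331 CPM in KO, most of it from F13a1. In bulk RNA, fewer cells of a type and less RNA per cell cannot be told apart. Of 12 tested markers of neutrophils and granulocyte precursors 2 were higher and 2 lower. Mpo and Elane rose from 12.99 and 11.1 CPM to 19.9 and 19.2 CPM and from 2.94 and 3.17 CPM to 4.85 and 4.44 CPM, and Csf3r and Mmp8 fell by 0.42 and 0.35. The summed level of the 14 markers measured was 181 to 193 CPM in all 4 libraries.

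Several feedback genes of NF-kB fell. Of 21 components and feedback genes 7 were called lower and none higher (median -0.13). Relb, the subunit of the non-canonical pathway, was at 22.1 and 28.7 CPM in WT and 13.7 and 16.2 CPM in KO (log2 difference -0.72 ± 0.05, limma adjusted p = 7.71e-10). Nfkb2, its partner, fell by 0.31. Nfkbia, Nfkbie and Nfkbiz, inhibitors of the IκB family, fell by 0.45, 0.41 and 0.39, and Tnfaip2 and Icam1 by 0.42 and 0.38. Birc3, another NF-kB target that blocks cell death, fell from 50.8 and 49.5 CPM to 35.1 and 34.8 CPM. The subunits Rela, Nfkb1 and Rel and the kinases Chuk and Ikbkb were not called, with differences of -0.10, -0.02, 0.12, 0.17 and 0.04. Without the block 5 of the 21 were called. Tnf was at 22.3 and 22.96 CPM in WT and 23.2 and 21.3 CPM in KO and was not called.

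Chemokine ligands split. Of 15 genes 6 were higher and 7 lower. Ccl7, a ligand of CCR2, was at 13.3 and 13.3 CPM in WT and 37.8 and 42.0 CPM in KO (log2 difference 1.51 ± 0.10, limma adjusted p = 7.27e-11). Ccl2, the main monocyte attractant, was at 44.4 and 40.04 CPM in WT and 103 and 109 CPM in KO. Ccl12 and the interferon-inducible Cxcl10 rose by 1.14 and 1.03. Ccl6, in contrast, fell from 347 and 345 CPM to 213 and 207 CPM (log2 difference -0.72 ± 0.04, limma adjusted p = 1.60e-12). Ccl3, Ccl9 and Cxcl16 fell by 0.50, 0.33 and 0.29. Ccl2, Ccl7 and Ccl12, which rose, and Ccl6, which fell, all lie between 80 and 85 Mb of chromosome 11. Without the block 4 were called higher and 1 lower, and without WT replicate 1 the number called lower was 4. Cx3cr1, the receptor for fractalkine, rose from 17.7 and 16.0 CPM to 25.3 and 26.8 CPM.

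Of 23 macrophage identity genes 3 were higher and 3 lower, or 1 and 1 without the block, and 5 were lower without WT replicate 1. The higher genes were Fcgr1 and the transcription factor genes Bhlhe40 and Klf4, with log2 differences of 0.60, 0.52 and 0.27, and the lower ones encode receptors for colony-stimulating factors. Csf1r, the M-CSF receptor on which BMMs depend, was at 2647 and 2832 CPM in WT and 2063 and 2176 CPM in KO (log2 difference -0.37 ± 0.03, limma adjusted p = 3.84e-10). Csf3r and Csf2rb fell by 0.42 and 0.31. Csf1, which encodes M-CSF itself, rose from 5.41 and 5.17 CPM to 9.14 and 7.95 CPM. Spi1, Maf, Cebpa and Irf8, transcription factors of macrophage identity, were not called, with differences of -0.11, -0.11, -0.20 and -0.10.

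Some inhibitors of the cell cycle and some autophagy genes fell. Cdkn1b, which encodes the inhibitor p27, fell by 0.27 and Ccng2, another brake on division, by 0.28, both just past the fold limit. Sesn1 and Trp53inp1, targets of p53 and FoxO, fell by 0.37 and 0.38. Of 17 p53 targets 5 (29.4%) were lower and 2 (11.8%) higher, while Trp53, Mdm2 and Cdkn1a were not called. Over all genes 4.95% were lower and 8.77% higher. Without the block 1 of the 17 was lower and 1 higher, and without KO replicate 1 the number lower was 3. Of 25 autophagy genes 5 (20%) were called lower and none higher. Gabarapl1 was at 174 and 159 CPM in WT and 121 and 119 CPM in KO (log2 difference -0.46 ± 0.04, limma adjusted p = 2.49e-08), and the initiating kinase Ulk1 fell by 0.36. Map1lc3a, Map1lc3b and Sqstm1 fell by 0.31, 0.28 and 0.27. Map1lc3a was not called with DESeq2, with a pseudocount of 5 or with no filter. Without the block, and also without KO replicate 2, 2 autophagy genes were called. Bmf, a pro-apoptotic protein, fell from 8.29 and 8.62 CPM to 4.03 and 4.44 CPM, and the survival genes Bcl2 and Bcl2l1 rose by 0.40 and 0.33. Casp4, the non-canonical inflammasome caspase, rose from 5.41 and 4.65 CPM to 12.7 and 11.8 CPM.

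Proteases and lipid genes gave further single changes. Plau, urokinase, rose from 173 and 203 CPM to 322 and 383 CPM (log2 difference 0.90 ± 0.04, limma adjusted p = 2.98e-14), and its receptor Plaur rose by 0.32. Mmp12 and Mmp13 rose by 0.46 and 0.53, and Mmp14 fell from 2.38 and 2.20 CPM to 0.740 and 0.970 CPM. Of 23 genes in that list 6 were higher and 2 lower, and the number lower was 5 without KO replicate 2 and 1 without WT replicate 2. The 6 and 2 are 26.1% and 8.7% of the list, against 8.77% and 4.95% over all genes. Without the block 1 was higher and 1 lower. Lpl, lipoprotein lipase, rose from 1956 and 1825 CPM to 2658 and 2578 CPM. Abca1, the cholesterol exporter, fell from 314 and 305 CPM to 214 and 216 CPM and Apoe fell by 0.33. Elovl6, which elongates fatty acids, rose by 0.54.

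Osteoclast genes were not at osteoclast levels in either genotype. Of 20 such genes 4 (20%) were called higher and 1 (5%) lower, or 1 and 0 without the block. Over all genes 8.77% were higher and 4.95% lower. Ctsk, the collagenase of osteoclasts, was at 3.52 and 2.40 CPM in WT and 4.51 and 4.07 CPM in KO (log2 difference 0.43, limma adjusted p = 0.000334), against 1778 and 1962 CPM in WT after RANKL. Itgav, a chain of the vitronectin receptor, was at 98.4 and 103 CPM in WT and 132 and 134 CPM in KO. Fos and Ppargc1b rose by 0.35 and 0.40. Prdm1, the repressor BLIMP1 that lifts brakes on osteoclast formation, fell by 0.32. Nfatc1, the master regulator, was at 104 and 91.9 CPM in WT and 107 and 90.3 CPM in KO, and Tnfrsf11a, the RANKL receptor, had a difference of 0.10. Neither was called.

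Several large organelle programs gave few or no calls. No gene was called among 40 subunits of oxidative phosphorylation, 17 V-ATPase subunits, 21 genes of TGF-β, Notch and Wnt signalling, 19 genes of the hypoxia response and 7 of NADPH oxidase. Of 24 cholesterol synthesis genes 1 was higher, of 35 lysosomal genes 1, and of 30 proteasome genes 1. Their medians lay between -0.17 and 0.04. With TMM factors 1 gene each of the V-ATPase, hypoxia, TGF-β and NADPH oxidase lists and of the ribosomal proteins was called lower.

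The largest single changes were in genes that were nearly absent from one genotype. Ifi44l had 1273 reads over both WT libraries and 1 read over both KO libraries, a ratio of 1188 with a 95% exact counting interval of 213 to 46974. Trim12a, an antiviral TRIM protein, was at 14.3 and 12.5 CPM in WT and at 0 and 0.0746 CPM in KO (780 against 2 reads, ratio 364, interval 100.4 to 3012). Asb4 had 675 against 3 reads (ratio 210.0, interval 71.6 to 1021). Gbp2b had 373 reads in WT and 0 in KO, at least 116-fold lower, and the RNA-binding protein gene Elavl4 had 0 reads in WT and 129 in KO, at least 46.1-fold higher, with 3 reads over a group as the floor in both. These intervals and floors cover counting error only. Plekha7, a junction protein, was at 0.306 and 0.802 CPM in WT and at 13.5 and 15.0002 CPM in KO, the largest rise on the log2(CPM + 1) scale (log2 difference 3.31 ± 0.12, limma adjusted p = 6.82e-15). Pyhin1, a DNA-binding protein of the interferon-inducible PYHIN family, was at 4.34 and 3.49 CPM in WT and 36.8 and 32.3 CPM in KO. Trim30d, Trim34a and Trim12a are near-identical neighbours of other TRIM genes, and Ifi44l and Gbp2b also have close paralogues, so their counts depend on how reads were shared.

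Set against all 12 libraries, these genes fell into different patterns. Ifi44l was at 19.8 and 25.05 CPM in WT without RANKL and between 0 and 0.43 CPM in the other 10 libraries, WT after RANKL included. Hgsnat, a lysosomal acetyltransferase, was at 340 and 382 CPM in WT, 132 and 152 CPM in KO, and 80.2 to 231 CPM in the other 8. Asb4 was at 12.2 and 11.1 CPM in WT, below 0.1 CPM in all 4 KO libraries, and at 1.58 to 1.93 CPM in the remaining 6. Plekha7 lay between 7.55 and 15.0002 CPM in KO, WT after RANKL, KO after RANKL and Control, and below 1 CPM in WT without RANKL and in Mir182mTg. Trim12a and Gbp2b, on the other hand, were under 0.3 CPM in the 4 KO libraries and at 3.06 CPM or more in all others. Over all called genes, the untreated Control libraries lay nearer KO than WT for 740 of the 969 higher genes and for 426 of the 547 lower genes. For the 180 genes that rose by 1.5-fold or more they lay nearer WT for 95. These are positions of group means on the log2 scale, given with no test, and what sets libraries apart was not tested.

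**Figure D3:**
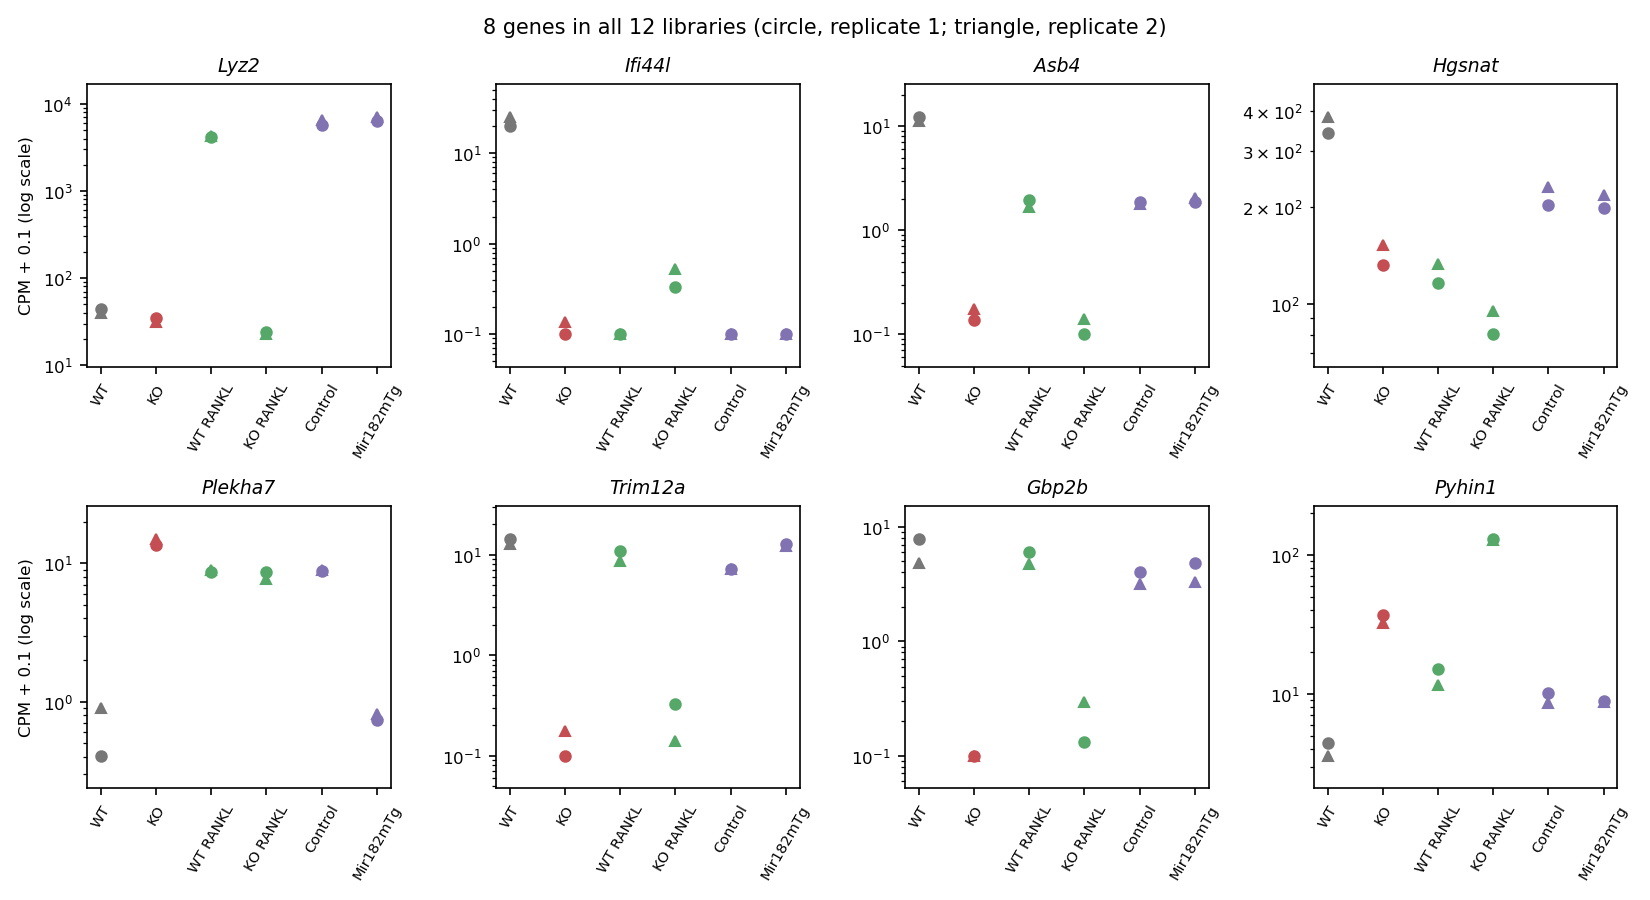
CPM + 0.1 of 8 genes in all 12 libraries on a log axis, one panel per gene. Grey is WT and red KO without RANKL, green is after RANKL and purple the Control and Mir182mTg libraries; circles are replicate 1 and triangles replicate 2. Lyz2 is low in WT, KO and KO after RANKL, Ifi44l is high in WT without RANKL alone, and Trim12a and Gbp2b are near 0 in all 4 KO libraries.

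Genes with larger changes were often neighbours. Of 10641 genes with a position in GENCODE vM21 (GRCm38), 2.31% were called with a change of 1.5-fold or more, and 93 of these 246 genes lay in 21 windows of 5 Mb that held at least 3 of them. The windows were chosen after the values were seen. The window chr11:80000001-85000000 held 10 of 53 tested genes, 4 chemokine and 4 Slfn genes with Wfdc17 and AA465934, and chr19:30000001-35000000 held 9 of 25, with 6 Ifit genes. The window chr1:170000001-175000000 held 9 of 53 (Ifi204, Slamf7, Fcgr2b, Kcnj10 and others), and chr7:100000001-105000000 held 7 of 44, all of them Trim genes that moved in both directions. The window chr6:5000001-10000000 held 4 of 12, with Asb4, Pon2 and Mios lower and Asns higher. Near Mir182 itself, 3 of 37 genes within 5 Mb were higher and 4 lower, and the median was 0.01. Smo, the Hedgehog signal transducer, was one of them, with 5.44 and 5.45 CPM in WT and 10.4 and 11.9 CPM in KO (log2 difference 0.91 ± 0.12, limma adjusted p = 3.02e-06). It was at 5.59 and 6.54 CPM in Control and 2.27 and 2.22 CPM in Mir182mTg. Tmem209 and Cep41 rose by 0.37 and 0.33, and Ube2h fell by 0.29.

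Genes with and without a seed match for miR-182-5p had nearly the same median difference. Of 10350 tested genes with an annotated 3′ UTR, 568 (5.49%) held TTGCCAAA, an 8-base match, and 2173 (20.995%) held that or a 7-base match, TTGCCAA or TGCCAAA, read on the sense strand with overlapping matches counted once. The median log2 difference was 0.01 for genes with the 8-base match, 0.02 for genes with any match and 0.01 for genes without one. Called higher were 7.22%, 7.96% and 8.89% of them. Genes with a match had longer 3′ UTRs, with a median of 2445 against 956 bases. TGCCAAA does not cover base 8 of the seed, so it fits miR-96-5p and miR-1271-5p equally. Among 15 tested genes that have been reported as targets of miR-182, Brca1 and Bcl2 were higher, Pdcd4 was lower and 12 were not called. Foxo1 and Foxo3, both with 8-base matches, had differences of 0.01 and -0.23.

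Sites of 4 genes that rose, each with an 8-base match and at least 5 CPM, are printed below beside the 7-base match of Eif2ak2. The match is in capitals, 5′ to 3′ on the mRNA strand. The 4 genes rose most among those whose sites were extracted, which may not include every gene with an 8-base match. All sites are from GENCODE vM21 transcripts, lie in 3′ UTRs and were chosen after the values were seen.
Plekha7, chr7:116123629-116123658, minus strand: tatcaacttcatgacatTTGCCAAAataag
Ifit1, chr19:34649182-34649211, plus strand: cctggacaaaaaagtctTTGCCAAAgaagg
Tnfsf10, chr3:27338128-27338157, plus strand: gcctgcaggacacatctTTGCCAAAatgtc
Gpatch2, chr1:187234279-187234308, plus strand: tttatgaattgcttgctTTGCCAAAtgcta
Eif2ak2, chr17:78852620-78852649, minus strand: actgtcaaccgaggcttcTGCCAAAtcttc
Tnfsf10, which encodes the death ligand TRAIL, was at 1.83 and 2.004 CPM in WT and 6.92 and 5.34 CPM in KO. The match of Eif2ak2 does not cover base 8 of the seed and fits miR-96-5p and miR-1271-5p equally. A match describes these letters alone and says nothing of binding.

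In the separate libraries of Control and Mir182mTg BMMs, where miR-182 was raised, some of these genes moved the other way. Of 959 genes higher in KO that could be tested there with edgeR's quasi-likelihood test, 92 (9.59%) were lower and 51 (5.32%) higher in Mir182mTg, against 3.08% lower and 3.35% higher over its 12063 genes. Of 537 genes lower in KO, 67 (12.5%) were higher and 26 (4.84%) lower. Besides 22 interferon-stimulated genes, Plekha7, Smo, Fn1, Cd36, Elovl6 and Ctss were higher in KO and lower in Mir182mTg. Clec4n, Clec4a1, Clec4e, Csf2rb, Trim12a, Lyplal1 and Pon2 were lower in KO and higher in Mir182mTg. Clec4n was at 17.3 and 17.0 CPM in Control and 20.9 and 24.6 CPM in Mir182mTg. In the replication, mitosis and ribosome biogenesis lists, 1 gene of 110 was called in Mir182mTg, and in the NF-kB list none of 21. Without the block in that fit the 92 and 67 fell to 11 and 3.

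After 5 days of RANKL, 570 of the 969 genes higher in unstimulated KO cells were again higher and 112 were lower. Of the 547 lower genes, 380 were again lower and 54 higher. Over all genes 15.7% were higher and 35.7% lower in that comparison, with a median of -0.14. TMM factors removed that shift and gave 676 of 969, 326 of 547, and 24.6% and 23.4% over all genes. Of the replication list 28 of 43 genes were higher without those factors and 36 with them, and of the mitosis list 32 and 36 of 40. Of 27 ribosome biogenesis genes 7 were higher and 1 lower without the factors, and 15 higher and none lower with them. The balance of the receptor and NF-kB lists turned with the scaling. The C-type lectin and NOD-like list had 7 genes lower and 5 higher without the factors, and 6 lower and 9 higher with them. The NF-kB list had 9 lower and 4 higher without them, and 5 lower and 7 higher with them. Oxidative phosphorylation, with no call before RANKL, had 36 of 40 genes lower without the factors and 34 with them. Osteoclast genes had 13 of 20 lower without the factors and 12 with them, among them Itgav, Ctsk and Ppargc1b, which were higher in KO before RANKL. Ctsk was at 492 and 547 CPM in KO after RANKL. Fold changes of both states share no library, and the WT libraries after RANKL are those with high Lyz2.

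**Figure D4:**
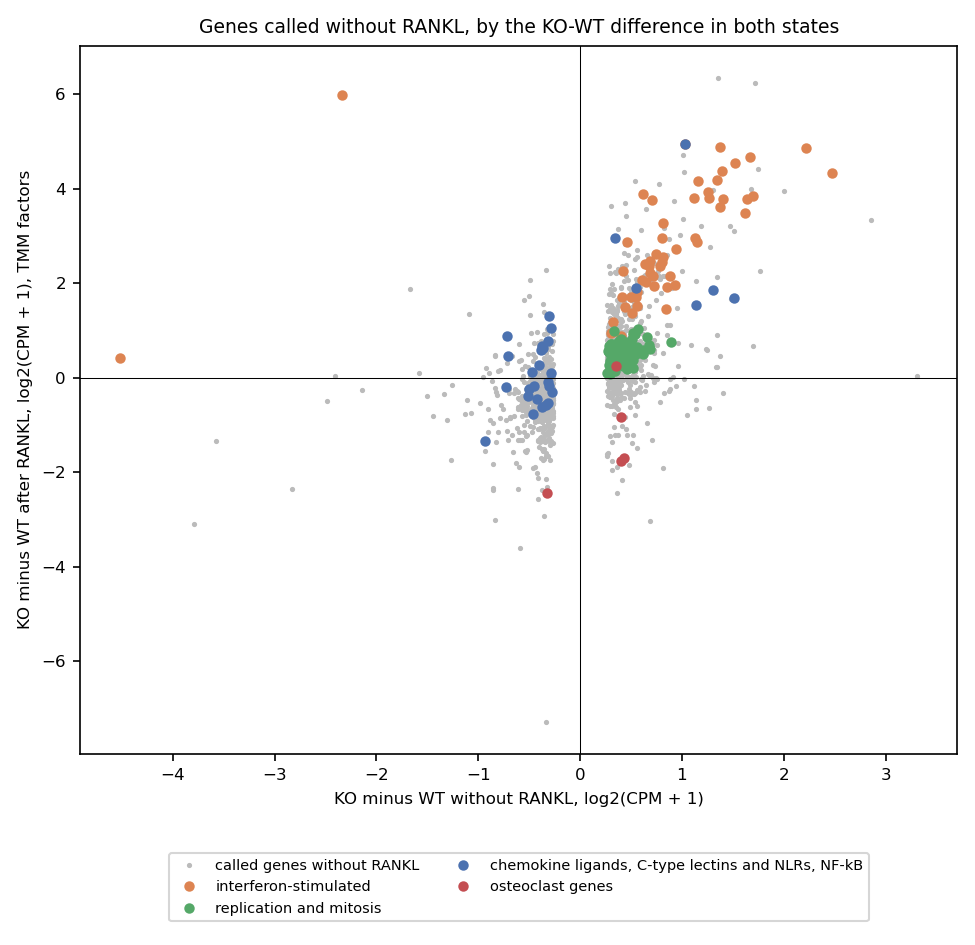
Genes called without RANKL, with the KO minus WT difference without RANKL on the x axis and after RANKL, with TMM factors, on the y axis, both in log2(CPM + 1). Orange interferon-stimulated and green replication and mitosis genes lie at the upper right except Ifi44 and Ifi44l, blue chemokine, C-type lectin, NOD-like receptor and NF-kB genes lie on both sides of 0 on both axes, 4 of the 5 red osteoclast genes lie below 0 on the y axis, and the lowest grey point is Lyz2.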

How the data were processed

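RNA-seq values of 12 libraries were used, grouped and numbered as their titles say. The deposited unit was CPM for the 8 WT and KO libraries and the count, not normalized, for the 4 Control and Mir182mTg libraries. The replicate 1 files also hold deposited RPKM, which is CPM divided by 1 fixed length per gene (within 1% for all 11818 genes checked) and was not tested. According to the submitters' processing notes, replicate 1 was processed with TopHat and Cufflinks and replicate 2 with HISAT2, HTSeq and edgeR, on mm10. The labels give poly-A RNA for replicate 1 and total RNA for replicate 2, although the protocol describes poly-A selection for both. The study calls the replicates biological, but the labels tie none to an animal, so p-values measure the spread between these libraries, part of which may be technical.

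All CPM values were whole multiples of the value of 1 read (100% within 0.02 reads), so reads were recovered from them. In the WT and KO files 27 row names had become dates, and these rows were kept without a gene name. The differences between replicates correlated between every pair of the 4 conditions (Pearson r 0.721 to 0.786 across genes, which are not independent replicates), and the number marks the preparation, so it was used as a block. limma (version 3.58.1, lmFit and eBayes with trend) was fitted on log2(CPM + 1) of all 8 libraries, so that fold changes of low genes are understated, and a gene was called at an adjusted p under 0.05 and 1.2-fold. The ± values are standard errors. Mir182mTg was compared with Control in a quasi-likelihood fit of edgeR 4.0.16, after filterByExpr and TMM, with the same block. Exact intervals for ratios of reads are conditional binomial intervals. p-values were adjusted by Benjamini-Hochberg over all genes tested. Alternatives were fits without the block or without each library, other pseudocounts, filters, fold limits and normalizations, and edgeR and DESeq2 (version 1.42.0) on the recovered reads. Scripts were tested on simulated data.

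Gene lists and the comparison were chosen with earlier results of these data known. Named are called genes of each list with the largest change, at least 5 CPM and the same sign in both pairs, the 10 largest changes in each direction outside the interferon lists, the genes with the highest levels, and the called genes at the Mir182 locus. Not every gene that this rule allows is printed, and some are not reported here. Others, among them list members named beside those, genes that were not called and near-absent genes, were chosen after their values were seen. Reactome sets were matched through RefSeq gene IDs (6998 of 7111).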

Additional observations from a re-analysis of the deposited data

Results flagged for a closer look

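Of 152 called genes picked by the rule for named genes, 25 were flagged. Their KO minus WT differences had opposite signs without and after RANKL and were called in both states. In limma's interaction term with Benjamini-Hochberg adjustment their highest adjusted p was 0.000483, for Cd80. That term is the difference of the same 2 contrasts of the same fit. Calls of opposite sign nearly fix its outcome, so it is no separate support. Each of the 25 held its direction after RANKL with TMM factors. Over all called genes, 112 of the 969 higher genes were lower after RANKL, and 54 of the 547 lower genes were higher. The values below are the log2 difference after RANKL minus that without RANKL, and no cause was tested. The WT libraries after RANKL are those in which Lyz2 was high.

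Genes lower in KO without RANKL and higher after it gave positive values. The antiviral genes had the largest, 8.21 for Ifi44, 4.92 for Ifi44l and 3.41 for Trim30d. Ifi44 went from -2.33 to 5.88. Apoe, the carrier of lipids, gave 2.47, the chemokine gene Ccl6 1.44 and the bacterial lipopeptide receptor gene Tlr2 1.17. Marcksl1 gave 1.24, Cd300ld 1.12, Clec10a 0.96, Ier3 0.88, Serinc3 0.82, Fas 0.63 and Cd80 0.59.

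Genes higher in KO without RANKL and lower after it gave negative values. The integrin genes Itgb7 and Itgav gave -2.42 and -1.38. Ppargc1b, a coactivator of mitochondrial biogenesis, gave -2.31 and Idh3a, an enzyme of the citrate cycle, -1.19. Ccr3, a chemokine receptor gene, gave -2.06, Bhlhe40 -1.89, Casp4 -1.76 and H2-Ab1, a chain of MHC class II, -1.73. Elovl6 gave -1.01, Tubb6 -1.005, Shmt1 -0.99 and Manf, a factor of the endoplasmic reticulum, -0.78.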

How the results depend on the processing

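With 2 libraries per genotype, the counts rested on the replicate block. Without it, 322 genes were higher and 128 lower in KO than in WT without RANKL, of which 221 and 90 moved the same way after RANKL, and 73 and 31 were called when the 4 libraries were fitted alone without the block. Of 152 named genes that were called, 84 were still called without the block and 36 without it in the 4 libraries alone, and none changed sign under any alternative. Among those lost were Relb, Myc, Shmt1, Cenpe, Ccl3, Ccl9, Clec4e, Apoe, Tfrc, Slc40a1, Bcl2 and Fn1. With the block, 145 of the 152 were still called with DESeq2, 140 with a pseudocount of 5, 146 with quantile normalization and 149 with TMM factors. Klf4 was lost under all of these, and Map1lc3a and Cd80 with DESeq2 and with the pseudocount of 5. Without the block 11 genes were higher in KO and lower in Mir182mTg, and 3 were lower in KO and higher in Mir182mTg.

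Other settings that moved a count by over 1.5 times were the fold limit and the pseudocount. With no fold limit 2156 genes were higher and 1491 lower, 1192 and 1093 of them the same way after RANKL, and 351 and 212 the opposite way in Mir182mTg. At 1.5-fold the counts were 180 and 81, with 115 and 45 the same way after RANKL. A pseudocount of 5 gave 356 lower genes, 229 of them lower after RANKL. DESeq2 with the block gave 55 and 30 genes that moved the opposite way in Mir182mTg. Leaving out each library in turn gave 882 to 983 higher and 458 to 562 lower genes, and, for those of the same direction after RANKL, 530 to 582 and 317 to 386. Leaving out each Control or Mir182mTg library, fitted without the block, gave 8 to 31 and 5 to 8 genes of opposite direction in Mir182mTg. TMM, quantile normalization, edgeR, a pseudocount of 0.1 and other filters stayed within 1.5 times. Genes near the 1 CPM limit are limited by depth, where 3 reads are 0.0908 to 0.120 CPM.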
